A study of Mus musculus with 6 samples.

Results

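The genes described here build and run the DNA replication machinery: the factors that license origins in G1 and those that make up the replication fork in S phase. They were taken as 47 named genes, each found once by its symbol among the 50686 genes of the count table, and all 47 passed the filter on low counts. RNA was measured by bulk sequencing in splenic natural killer (NK) cells, innate lymphocytes that kill transformed cells, from C57BL/6J mice. The WT group came from healthy wild type mice and the Eumyc group from mice that had received Eumyc lymphoma, a B cell lymphoma driven by Myc, intravenously, with spleens taken at day 14. Each group had 3 libraries, and the labels do not say whether the 3 came from separate animals, so p-values cover the spread among these libraries alone, and that may be technical. The genotype label (wild type) is given for the WT samples only. All cells went through B cell depletion, CD49b bead enrichment and a sort for NK1.1+ cells without TCRb. For the Eumyc samples the fraction that the beads had not bound was sorted too, so lymphoma and sorting input cannot be told apart in any difference below.

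An origin is licensed when the origin recognition complex (ORC), with CDC6 and CDT1, loads the MCM2-7 helicase onto DNA, and geminin blocks CDT1 once S phase has begun. The kinase CDC7 with its activator DBF4, together with MCM10, CDC45 and the GINS complex, turns the loaded helicase into an active fork. Polymerase alpha-primase starts each strand, polymerases delta and epsilon extend it on the PCNA clamp, which the RFC complex loads, and the fork protection factors keep helicase and polymerases together. Resting lymphocytes keep many of these transcripts low, and E2F factors switch many of them on when a cell enters the cycle.

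Because most of these genes moved together, their promoters are shown first, for the 2 highest risers and the 2 genes with the lowest log2 fold change that had a promoter in the RefSeq table (GRCm38.p6), and for Mcm6, which was added after its values were seen because it held the most E2F matches. Each run has 250 bases before the annotated start and 50 from it, 5′ to 3′ on the gene's strand, and capitals mark TTTNNCGC, a core of E2F sites, read on either strand, as were the other motifs counted.
Clspn promoter (chr4:126556730-126557029, plus strand): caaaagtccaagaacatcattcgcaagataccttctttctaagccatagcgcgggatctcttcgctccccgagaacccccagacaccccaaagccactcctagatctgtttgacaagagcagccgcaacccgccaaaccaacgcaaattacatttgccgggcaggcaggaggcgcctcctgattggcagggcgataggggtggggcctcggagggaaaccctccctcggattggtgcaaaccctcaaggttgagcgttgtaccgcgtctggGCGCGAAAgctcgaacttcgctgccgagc
Mcm10 promoter (chr2:5012742-5013041, minus strand): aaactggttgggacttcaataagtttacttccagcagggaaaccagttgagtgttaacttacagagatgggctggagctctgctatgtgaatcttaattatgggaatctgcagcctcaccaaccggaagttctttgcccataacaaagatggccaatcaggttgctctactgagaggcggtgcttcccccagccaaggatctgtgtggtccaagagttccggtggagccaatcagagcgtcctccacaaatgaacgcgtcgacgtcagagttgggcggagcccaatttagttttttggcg
Mcm6 promoter (chr1:128359656-128359955, minus strand): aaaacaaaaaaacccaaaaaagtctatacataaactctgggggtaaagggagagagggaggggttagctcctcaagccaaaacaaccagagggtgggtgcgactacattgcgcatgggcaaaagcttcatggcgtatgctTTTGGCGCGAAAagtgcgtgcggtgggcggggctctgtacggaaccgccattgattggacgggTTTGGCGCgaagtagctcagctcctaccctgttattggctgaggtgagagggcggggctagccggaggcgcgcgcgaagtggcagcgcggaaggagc
Orc4 promoter (chr2:48950032-48950331, minus strand): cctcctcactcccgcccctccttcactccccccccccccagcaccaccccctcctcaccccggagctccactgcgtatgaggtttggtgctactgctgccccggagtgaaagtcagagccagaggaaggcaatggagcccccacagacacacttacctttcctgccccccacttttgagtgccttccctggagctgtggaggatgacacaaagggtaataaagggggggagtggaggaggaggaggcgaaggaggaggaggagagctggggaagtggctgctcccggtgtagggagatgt
Orc5 promoter (chr5:22550289-22550588, minus strand): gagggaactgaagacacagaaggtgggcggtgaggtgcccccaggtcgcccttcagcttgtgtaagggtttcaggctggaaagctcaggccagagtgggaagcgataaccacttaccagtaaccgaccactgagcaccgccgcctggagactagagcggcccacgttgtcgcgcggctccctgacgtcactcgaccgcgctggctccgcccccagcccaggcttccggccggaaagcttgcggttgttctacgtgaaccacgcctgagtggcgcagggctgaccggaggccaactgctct
Clspn held 1 match, starting 22 bases into the transcript, and Mcm6 held 3, of which 2 overlap in the first capitalised run. The first of the 3 starts 110 bases before the transcript. Mcm10, Orc4 and Orc5 held no full match in the window shown, and the table lists other windows for Orc4 that also held none. The Mcm10 window ends in tttggcg, which fits TTTNNCGC up to its last letter. The next base lies outside the window, so a match across that edge was not counted. Of the 47 genes 38 had a promoter in the table, and 16 of these (42.1%) held TTTNNCGC in at least 1 window, against 5.93% of the 27025 genes in the table. Of the related gene lists described below, G1/S regulators held it in 9 of 20 genes (45%) and other replication factors in 9 of 25 (36%). The dNTP supply list held it in 1 of 9, mitosis in 1 of 11, the replication checkpoint in 1 of 7 and translesion and repair polymerases in 0 of 7. By class of the 47 genes TTTNNCGC was found in 4 of 5 MCM2-7 genes, 4 of 7 polymerase genes and 2 of 6 ORC genes. It was found in 2 of 2 MCM loader genes, 1 of 2 Okazaki fragment genes and 1 of 3 fork protection genes. The helicase activation class had it in 1 of 5 genes, the clamp and clamp loader class in 1 of 5 and RPA in 0 of 3. CCAAT, the NF-Y box, was found in 22 of the 38 (57.9%) against 41.1% of all genes, and TTTGAA, the CHR element of late cell cycle genes, in 7 (18.4%) against 20.2%. Of the 18 genes with a promoter whose rise passed the test against a 1.5-fold change described below, 10 held TTTNNCGC, and of the other 20 genes 6 did. Orc3, Pold3 and Cdt1, whose change did not pass an adjusted p of 0.05, were among those that held it. A match describes the letters only.

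The 3 WT libraries held 16407611 to 36534191 gene counts and the 3 Eumyc libraries 44456157 to 66615602. Levels are in CPM, read counts scaled to library size, after TMM scaling unless stated. NK cell markers were abundant in each library, with Ncr1 at 1324 to 1420 CPM of all counts in WT and 1069 to 1168 in Eumyc. The 10 NK cell markers summed to 13022 to 13407 CPM in WT and 11222 to 12367 in Eumyc. Of these 10 markers 6 fell and 0 rose. Klrk1 stood at 1560 to 1743 CPM in WT and 1048 to 1110 in Eumyc. Nkg7 went the other way without passing, at 1280 to 1333 and 1375 to 1531 CPM. The 12 B cell markers, which lymphoma cells could carry, were detected at a summed 16.3 to 20.2 CPM in WT and 49.5 to 55.7 in Eumyc, of which Cd22 made up 36.1 to 40.1 CPM in Eumyc. The 10 erythroid markers summed to 14.9 to 34.0 and 62.8 to 74.9 CPM, and 9 of them rose. The 10 monocyte and macrophage markers summed to 1134 to 1222 CPM in WT and 1573 to 2156 in Eumyc. Most of that sum was Ccr2 and Ly6c2, and Ly6c2 was lower in each Eumyc library. Other markers of this list differed by more, with Fcgr4 at 1.34 to 1.72 CPM in WT and 65.0 to 190.1 in Eumyc, Lyz2 at 10.2 to 28.8 and 121 to 289.7, and Csf1r at 33.6 to 48.6 and 143 to 335. The list had 8 genes that rose and 2 that fell. The 8 neutrophil and progenitor markers summed to 73.0 to 84.1 and 115 to 140 CPM, of which Kit made up 70.3 to 82.4 and 69.1 to 105. S100a9 in that list stood at 0.137 to 1.65 CPM in WT and 16.4 to 20.9 in Eumyc, and Ltf at 0 to 0.254 and 6.50 to 11.3. The 8 T cell markers summed to 126 to 139 and 181 to 218 CPM, with Cd28 at 81.7 to 90.9 and 58.0 to 66.7 and Cd3g at 14.2 to 16.7 and 60.8 to 70.1. None of these lists had a marker at 0 in all 6 libraries, and the part of these cells in the results below was not tested. In these bulk samples more cycling cells and more transcript per cycling cell cannot be told apart.

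Replication genes were higher in Eumyc with few exceptions, and the 47 together took 0.193% to 0.261% of a WT library's counts and 0.363% to 0.465% of a Eumyc library's. With edgeR's quasi-likelihood test, at a Benjamini-Hochberg adjusted p under 0.05 over all 15458 tested genes, 40 of the 47 rose, 1 fell and 6 did not pass. Over all tested genes 48.8% were called, 25.7% higher and 23.1% lower. The median log2 fold change was 1.05 over the 47 genes and -0.00 over all tested genes. Every Eumyc library lay above every WT library for 41 genes, where 31.3% of tested genes did so, and below for 3, where 28.9% did so. The call held under each of 16 alternatives for 43 genes, and the other 4 were Orc4, Orc5, Rpa3 and Fen1.

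**Figure D1:**
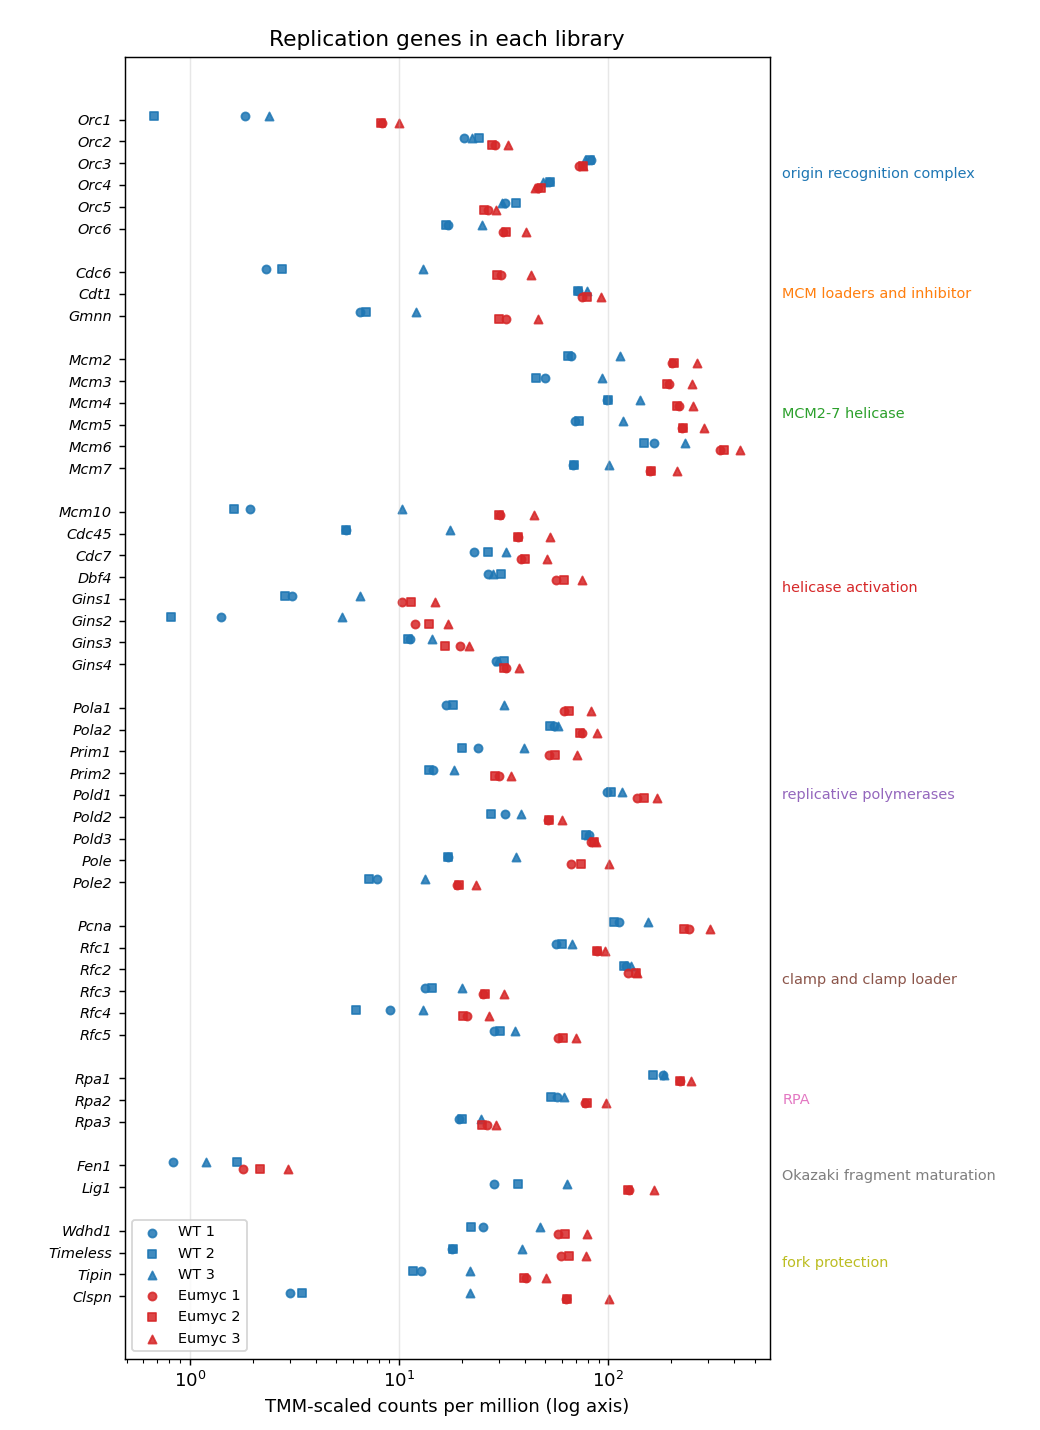
TMM-scaled CPM (log axis) of the 47 replication genes in the 6 libraries, by class. Circles, squares and triangles are replicates 1, 2 and 3, WT in blue and Eumyc in red. The Eumyc points lie to the right of the WT points for 41 genes, and WT 3 lies between both other WT libraries and the Eumyc libraries for 37.

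A rise of more than 1.5-fold, tested with edgeR's glmTreat, held for 25 of the 47 genes, where 8.15% of all tested genes passed in that direction. These were all 6 MCM2-7 genes, 5 of 8 helicase activation genes, 4 of 9 polymerase genes, 3 of 6 clamp and clamp loader genes, 3 of 4 fork protection genes, 2 of 3 loader genes, 1 of 6 ORC genes and 1 of 2 Okazaki fragment genes. The count was 8 without WT 1, 9 without WT 2, 12 without Eumyc 3 and 30 without WT 3. The share of all tested genes was not counted in these smaller fits, so these counts have no background beside them. The class medians of the log2 fold change were 2.12 for the MCM loaders and inhibitor, 1.49 for fork protection, 1.39 for helicase activation, 1.32 for MCM2-7, 1.30 for Okazaki fragment maturation, 1.00 for polymerases, 0.90 for the clamp and its loader, 0.37 for RPA and 0.16 for ORC, which are descriptions of classes of unequal size.

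**Figure D2:**
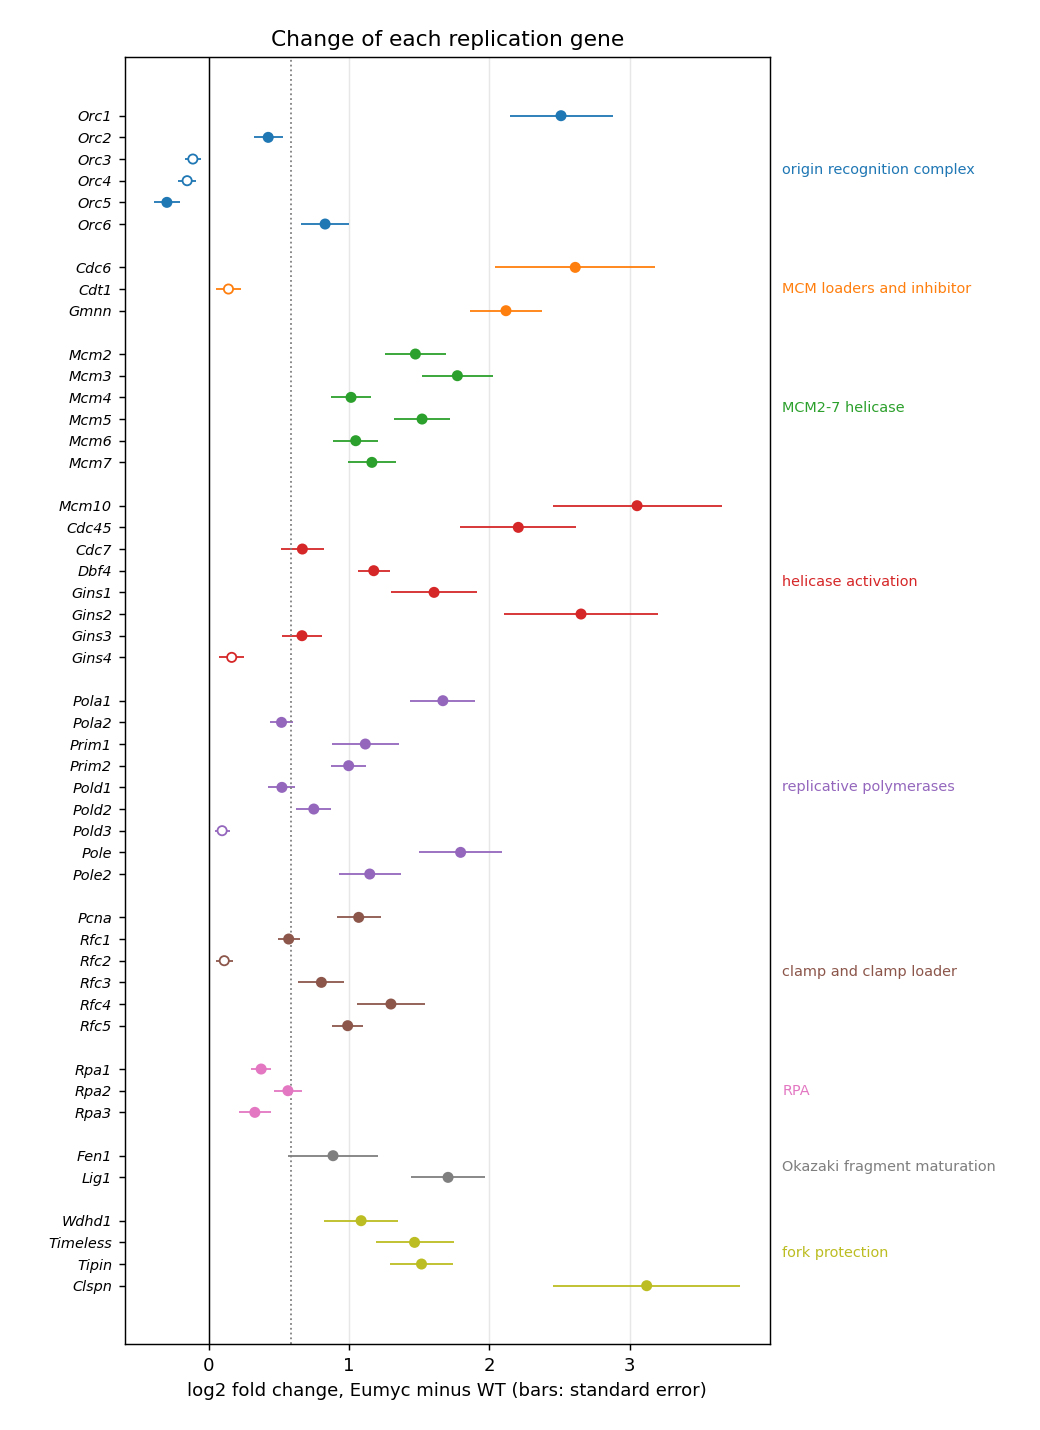
Log2 fold change of each replication gene, Eumyc minus WT, with its standard error as a bar. Filled points passed an adjusted p of 0.05 and open points did not, the dotted line marks a 1.5-fold rise. Clspn and Mcm10 stand highest at 3.12 and 3.05, and 3 of the 6 ORC genes lie below 0.

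ORC held genes that rose, 1 that fell and 2 that did not pass. Orc1, the ATPase subunit that in cycling cells is made anew for each round, had 1.84, 0.676 and 2.40 CPM in WT 1, 2 and 3 and 8.31, 8.17 and 10.0 CPM in Eumyc 1, 2 and 3. The 2 groups did not overlap, and Orc1 rose by 2.51 ± 0.37 (SE) on the log2 scale (edgeR adjusted p = 0.00101). Orc6, a subunit that bends DNA and aids MCM loading, rose from 17.1, 16.7 and 25.0 to 31.2, 32.3 and 40.2 CPM (log2 fold change 0.83 ± 0.17 SE, edgeR adjusted p = 0.00438). Orc2, a core subunit, rose by 0.42 ± 0.10 and was at 20.4 to 24.0 CPM in WT and 27.6 to 33.2 in Eumyc, with 29.8% of its exonic bases shared with the overlapping Nif3l1. The core subunits Orc3 and Orc4 did not pass, with log2 fold changes of -0.11 ± 0.06 and -0.15 ± 0.07 (edgeR adjusted p = 0.129 and 0.0869), although for both every Eumyc library lay below every WT library. Orc4 passed under total count and upper quartile scaling (edgeR adjusted p = 0.0417 and 0.0419). Orc5 was the 1 gene of the 47 that fell, from 32.2, 36.3 and 31.2 to 26.5, 25.6 and 29.1 CPM (log2 fold change -0.30 ± 0.09 SE, edgeR adjusted p = 0.0257). It lost this call without WT 1, WT 2, Eumyc 1 or Eumyc 2 (edgeR adjusted p = 0.0632, 0.110, 0.0936 and 0.110) and with libraries thinned to equal depth (0.0782), always lower in Eumyc.

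Among the factors that load MCM2-7, Cdc6 and Cdt1 parted. Cdc6, the ATPase that joins ORC, stood at 2.31, 2.76 and 13.1 CPM in WT and 30.8, 29.3 and 42.7 CPM in Eumyc and rose by 2.61 ± 0.57 (SE) on the log2 scale (edgeR adjusted p = 0.00603). WT 3 was the highest WT library by far, and without it the log2 fold change of Cdc6 was 3.76. Cdt1, which brings MCM2-7 to the origin, was already at 71.4, 71.8 and 79.4 CPM in WT and stood at 74.7, 78.7 and 91.8 CPM in Eumyc. Its groups overlapped and it did not pass (log2 fold change 0.14 ± 0.09 SE, edgeR adjusted p = 0.214). Gmnn, which encodes geminin, rose from 6.53, 6.92 and 12.0 to 32.3, 30.0 and 46.1 CPM (log2 fold change 2.12 ± 0.25 SE, edgeR adjusted p = 0.000470). The Cdt1 gene spans chromosome 8 from 122568015 to 122573554 and Gmnn spans chromosome 13 from 24751845 to 24761923, both protein-coding, in the deposited coordinates on GRCm38.

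The 6 MCM2-7 genes, whose products form a ring of single copies, rose together. Mcm3 had the highest log2 fold change, with 49.8, 45.3 and 92.7 CPM in WT and 195, 190 and 250 CPM in Eumyc (1.77 ± 0.25 SE, edgeR adjusted p = 0.000935). Mcm5 followed at 69.5, 72.1 and 117 CPM in WT and 224, 228 and 287 CPM in Eumyc (1.52 ± 0.20). Mcm4 had the lowest change of the ring, at 98.3, 99.8 and 141 CPM in WT and 217, 212 and 254 CPM in Eumyc (1.01 ± 0.14). Mcm2, Mcm7 and Mcm6 rose by 1.47, 1.16 and 1.05 on the log2 scale. Of the 50-base stretches of the Mcm7 transcripts, 16.5% also occur in another gene. Overlapping genes such as Cops6 share 12.6% of its exonic bases. In each of the 6 genes WT 3 was the highest WT library and still below the lowest Eumyc library.

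The factors that activate the helicase had log2 fold changes from 0.16 to 3.05, and 7 of the 8 rose. Mcm10, which helps open the loaded helicase, had 1.95, 1.62 and 10.3 CPM in WT, and 30.3, 30.0 and 44.1 CPM in the Eumyc libraries (log2 fold change 3.05 ± 0.60 SE, edgeR adjusted p = 0.00384). Cdc45, a part of the active helicase, stood at 5.56, 5.57 and 17.4 CPM in WT and 36.8, 37.0 and 52.5 CPM in Eumyc (2.21 ± 0.41, edgeR adjusted p = 0.00306). Both had WT 3 well above the other WT libraries, and without it their log2 fold changes were 4.30 and 2.93. Dbf4, the activating subunit of the CDC7 kinase, behaved otherwise, with 26.5, 30.6 and 28.0 CPM in WT, where WT 3 lay between the others, and 56.4, 61.4 and 74.8 CPM in Eumyc (1.18 ± 0.11, edgeR adjusted p = 0.000237). Cdc7, the kinase itself, rose by 0.67 ± 0.15 and its groups did not overlap.

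The 4 GINS genes, whose products form 1 complex of single copies, differed widely. Gins2 rose from 1.41, 0.811 and 5.33 to 12.0, 13.8 and 17.1 CPM (log2 fold change 2.65 ± 0.55 SE, edgeR adjusted p = 0.00486), and by 3.73 without WT 3. Gins2 shares 67.3% of its exonic bases with the overlapping Gse1 in the GENCODE M21 annotation, so its counts are uncertain. Gins1 rose from 3.07, 2.84 and 6.53 to 10.3, 11.4 and 14.8 CPM (1.61 ± 0.31) and Gins3 from 11.2, 11.1 and 14.4 to 19.6, 16.6 and 21.6 CPM (0.66 ± 0.14). Gins4 stood at 29.0, 31.9 and 29.7 CPM in WT and 32.5, 31.8 and 37.4 CPM in Eumyc, overlapped between groups and did not pass (0.16 ± 0.09, edgeR adjusted p = 0.161).

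Of the 9 genes of the replicative polymerases 8 rose, and the catalytic subunits of alpha and epsilon had the highest log2 fold changes. Pole, the catalytic subunit of leading strand polymerase epsilon, stood at 17.1, 17.1 and 36.3 CPM in WT and 66.0, 74.3 and 100.2 CPM in Eumyc (log2 fold change 1.80 ± 0.29 SE, edgeR adjusted p = 0.00164). Pola1, the catalytic subunit of polymerase alpha, stood at 16.8, 18.1 and 31.7 CPM in WT and 61.5, 64.6 and 82.7 CPM in Eumyc (1.67 ± 0.23, edgeR adjusted p = 0.000812). Their partner subunits Pole2 and Pola2 rose by 1.15 ± 0.22 and 0.52 ± 0.08, and the primase genes Prim1 and Prim2 by 1.12 ± 0.24 and 1.00 ± 0.13. For polymerase delta, the lagging strand enzyme, the catalytic Pold1 rose by 0.52 ± 0.10 and the accessory Pold2 by 0.75 ± 0.12. The accessory Pold3 stood at 80.5, 78.3 and 80.3 CPM in WT and 82.8, 85.1 and 87.5 CPM in Eumyc, without overlap, and did not pass (0.10 ± 0.05, edgeR adjusted p = 0.166).

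Pcna, the sliding clamp, rose from 112, 106 and 155 to 243, 231 and 306 CPM (log2 fold change 1.07 ± 0.16 SE, edgeR adjusted p = 0.00101), and 19.1% of its transcript 50-mers also occur in other transcripts such as Pcna-ps2. Of the 5 RFC genes, Rfc4 and Rfc5 rose by 1.30 ± 0.24 and 0.99 ± 0.11 and Rfc3 by 0.80 ± 0.16. The large subunit Rfc1 rose by 0.57 ± 0.08. Rfc2 stood at 119 to 129 CPM in WT and 125 to 137 CPM in Eumyc and did not pass (0.11 ± 0.06, edgeR adjusted p = 0.157). The genes of RPA, which coats single-stranded DNA, had small rises of 0.37 ± 0.07 for Rpa1, 0.56 ± 0.10 for Rpa2 and 0.33 ± 0.12 for Rpa3. For Rpa3, 9.48% of the transcript 50-mers also occur in other genes such as Gm6195. The Rpa3 call (edgeR adjusted p = 0.0434) was lost without WT 1, WT 2, Eumyc 1 or Eumyc 3 (0.138, 0.128, 0.0757 and 0.138), under total count and upper quartile scaling (0.0715 and 0.0669) and at equal depth (0.0639).

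Lig1, the ligase that seals Okazaki fragments, stood at 28.5, 37.1 and 63.3 CPM in WT and 126, 123 and 166 CPM in Eumyc (log2 fold change 1.71 ± 0.26 SE, edgeR adjusted p = 0.00122). Fen1, the flap nuclease of the same step, was listed at 0.830, 1.68 and 1.20 CPM in WT and 1.80, 2.17 and 2.95 CPM in Eumyc (0.89 ± 0.32, edgeR adjusted p = 0.0474). It shares 84.2% of its exonic bases with the overlapping Tmem258 and Gm10143, so this level is uncertain. Its call was lost without WT 1, WT 3, Eumyc 2 or Eumyc 3 (edgeR adjusted p = 0.140, 0.0849, 0.0763 and 0.164), with limma voom (0.0542), at equal depth (0.328), under total count and upper quartile scaling (0.0568 and 0.0569) and without WT 3 and Eumyc 3 together (0.217).

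Clspn, which encodes claspin, the fork mediator of the checkpoint kinase CHK1, had the highest log2 fold change of the 47. WT levels were 3.03, 3.44 and 21.9 CPM and Eumyc levels 62.4, 63.3 and 100.2 CPM (3.12 ± 0.67 SE, edgeR adjusted p = 0.00554). WT 3 was again far above the other WT libraries, and the log2 fold change was 4.54 without it. Timeless and Tipin, which form the fork protection pair, rose by 1.47 ± 0.28 and 1.52 ± 0.22, and Wdhd1, which links polymerase alpha to the helicase, by 1.09 ± 0.26. Tipin went from 12.8, 11.7 and 21.8 to 40.2, 39.6 and 50.5 CPM. Clspn spans chromosome 4 from 126556935 to 126593903 and Mcm10 spans chromosome 2 from 4989714 to 5012791, both protein-coding.

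The spread within the groups followed the same genes. In WT 3, 42 of the 47 exceeded the mean of WT 1 and WT 2 and the median gap was 0.53 log2 units, while the median over all tested genes was 0.01 with 51.4% above. Between WT 1 and WT 2 the median difference of the 47 genes was 0.00. WT 3 was the highest WT library for 39 genes (83.0%, against 37.9% of all tested genes), and for 37 it also lay below every Eumyc library (78.7%), where 2782 of all 15458 tested genes did so. That order needs Eumyc above WT, and among genes called higher it held for 37 of the 40 members (92.5%) and for 2443 of all 3973 (61.5%). The gap of WT 3 was 2.76 log2 units for Clspn, 2.53 for Mcm10, 2.37 for Cdc6, 2.31 for Gins2 and 1.65 for Cdc45. It was -0.13 for Orc5, -0.11 for Orc4, -0.09 for Orc3, -0.03 for Gins4 and -0.02 for Dbf4, the 5 genes in which WT 3 was not above the mean of the others. By class the median gap was 1.05 for fork protection, 0.84 for the MCM loaders and inhibitor, 0.77 for helicase activation, 0.65 for MCM2-7, 0.50 for Okazaki fragment maturation, 0.37 for polymerases, 0.40 for the clamp and its loader, 0.16 for RPA and -0.04 for ORC.

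Eumyc 3 stood apart in its group in a similar way, by less. It was the highest Eumyc library for 45 of the 47 genes (95.7%, against 34.9% of all tested genes and 53.3% of those called higher), and lay above the mean of Eumyc 1 and Eumyc 2 for 46, by a median of 0.33 log2 units. The gap was 0.67 for Clspn, 0.55 for Mcm10 and 0.51 for Cdc6, and it was 0.06 for Pold3, 0.03 for Orc3 and -0.07 for Orc4. Across the 47 genes the gap of WT 3 and that of Eumyc 3 had a Pearson correlation of 0.71, and across all 15458 tested genes of 0.10. These gaps share no library, and genes are not independent replicates, so the correlation is a description. WT 3 was the shallowest and Eumyc 3 the deepest library. The B cell markers summed to 19.1 CPM in WT 3, between 16.3 and 20.2 CPM in WT 1 and WT 2, and the erythroid markers to 14.9 CPM, below 34.0 and 22.0 CPM. The monocyte and macrophage markers summed to 1222 CPM in WT 3, above 1134 and 1136 CPM, with Lyz2 at 28.8 against 11.9 and 10.2 CPM and Fcgr1 at 2.07 against 0.508 and 0.465 CPM, the direction of Eumyc. Csf1r and Fcgr4 were lowest in WT 3 of the WT libraries, at 33.6 and 1.34 CPM, and the part of these cells in the gap of WT 3 was not tested. In Eumyc 3 the B cell sum of 55.6 CPM lay between 55.7 and 49.5 CPM in Eumyc 1 and Eumyc 2, while the T cell sum of 218 CPM and the erythroid sum of 74.9 CPM were the highest of the 3. Without WT 3 the 47 genes gave 39 higher calls and 1 lower call, with a median log2 fold change of 1.21, and without WT 3 and Eumyc 3 together also 39 and 1, with a median of 1.12. Over all tested genes at least 3252 were called higher whichever 1 library was left out, against 3973 with all libraries. No such count is given here for the fit without both.

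**Figure D3:**
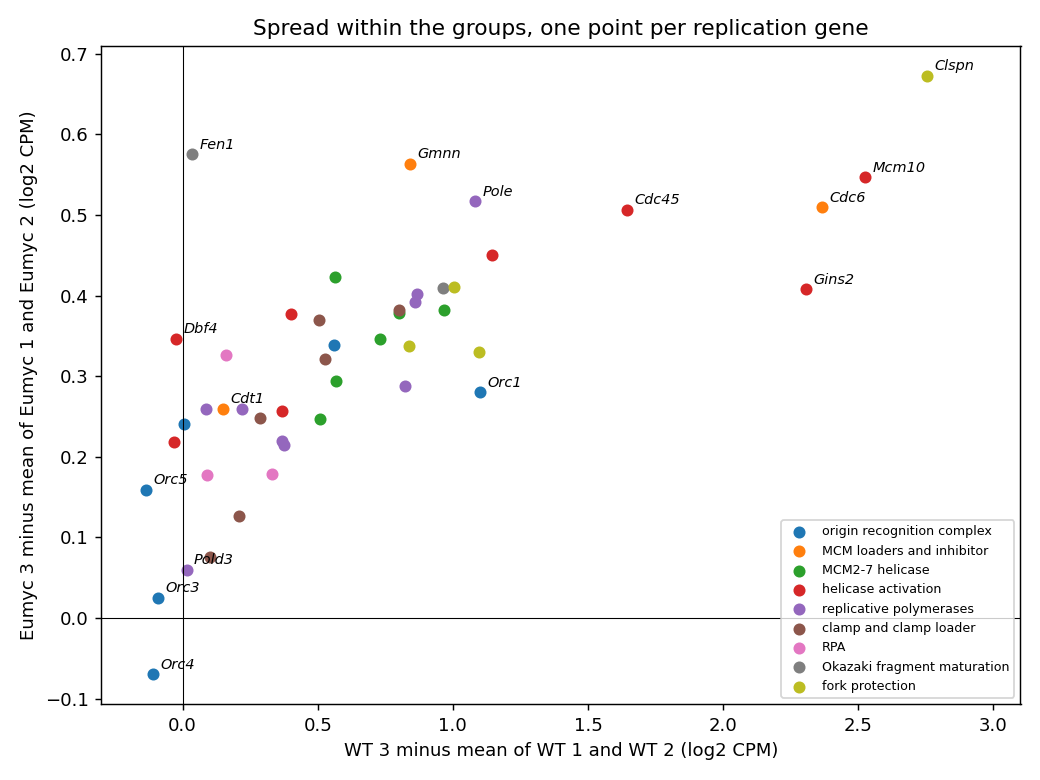
Gap of WT 3 from the mean of the other WT libraries (horizontal) against the gap of Eumyc 3 from the mean of the other Eumyc libraries (vertical), both in log2 CPM, with 1 point per replication gene coloured by class. Clspn, Mcm10, Cdc6 and Gins2 lie far to the right at 2.31 to 2.76, and Orc3 and Orc4 lie near 0 on both axes.

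The ratio of partner genes inside a library does not depend on how libraries are scaled. It was compared for 10 pairs with a two-sided exact permutation test, which for 3 against 3 libraries cannot give a p below 0.1, and Benjamini-Hochberg values over the 10 pairs. The log2 ratio of Cdt1 to Gmnn counts was 3.45, 3.37 and 2.72 in WT 1, 2 and 3 and 1.21, 1.39 and 0.99 in Eumyc 1, 2 and 3. The activator thus lay closer to its inhibitor in every Eumyc library, by -1.98 log2 units on average (exact permutation p = 0.1, adjusted p = 0.143). The ratio of Orc1 to Orc2 counts was -3.46, -5.12 and -3.20 in WT and -1.78, -1.76 and -1.73 in Eumyc, a difference of 2.17 with the same p. The groups were also without overlap for Gins2 to Gins4 (2.77), Mcm10 to Mcm2 (1.91), Pola1 to Pola2 (1.18), Pole2 to Pole (-0.67) and Dbf4 to Cdc7 (0.50), each at the smallest p the design allows.

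The groups overlapped for the remaining 3 pairs. Timeless to Tipin had log2 ratios of 0.49 to 0.82 in WT and 0.56 to 0.71 in Eumyc, a difference of -0.01 (exact permutation p = 1). Prim1 to Prim2 differed by 0.15 (exact permutation p = 0.5, adjusted p = 0.556) and Rfc3 to Rfc1 by 0.24 (exact permutation p = 0.3, adjusted p = 0.375). In 6 of the 7 pairs without overlap WT 3 was the WT library nearest to Eumyc, and for Dbf4 to Cdc7 it was the farthest at -0.21 against 0.22 and 0.21.

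**Figure D4:**
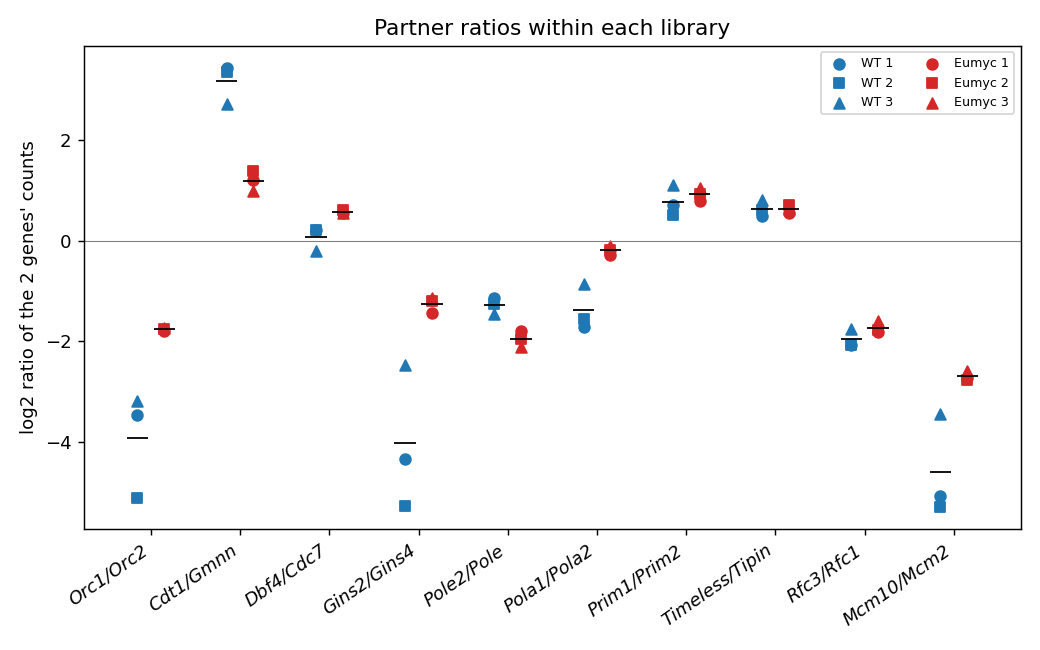
Log2 ratio of the counts of 2 partner genes within each library, WT in blue and Eumyc in red, with circles, squares and triangles for replicates 1, 2 and 3 and short lines at the group means. The WT and Eumyc points are separate for 7 of the 10 pairs and overlap for Prim1/Prim2, Timeless/Tipin and Rfc3/Rfc1.

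Levels were compared between genes per exonic length, in length-scaled units (TPM) that sum to the same total in each library. They were computed from the counts and the merged length of all exons annotated for a gene in GENCODE M21. Ranks between genes depend on that length, which may exceed that of the transcripts in these cells. Within MCM2-7, Mcm2 was the lowest and Mcm6 the highest subunit in all 6 libraries. The rank of Mcm2 rests on its merged length of 6956 bases, against 3752 for Mcm3. By CPM Mcm2 lay above Mcm3 in each library. Mcm6 exceeded Mcm2 by 3.05- to 3.72-fold in WT and by 2.41- to 2.59-fold in Eumyc. Within ORC, Orc1 was the lowest subunit in all 6 libraries, at 0.701 to 2.42 TPM in WT and 7.81 to 9.51 TPM in Eumyc. The ratio of the highest to the lowest ORC subunit was 18.4 to 68.9 in WT and 5.30 to 5.66 in Eumyc. With Orc1 left out it was 2.28 to 2.61 in WT and 2.94 to 3.45 in Eumyc, so the other 5 subunits were slightly farther apart in Eumyc.

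Within GINS, Gins2 was the lowest and Gins4 the highest gene in each library, with a ratio of 16.9 to 119 in WT and 6.65 to 8.24 in Eumyc, and the overlap of Gins2 with Gse1 bears on these values. Within RFC, Rfc3 was the lowest and Rfc2 the highest, with a ratio of 3.69 to 5.18 in WT and 2.47 to 3.02 in Eumyc. Polymerase alpha-primase and RPA had ratios that overlapped between the groups, at 3.11 to 3.48 in WT and 2.68 to 3.20 in Eumyc for the former and at 1.60 to 1.92 and 1.70 to 1.79 for the latter. In ORC, MCM2-7, GINS and RFC the WT 3 value was the WT value nearest to Eumyc. By mean TPM the most abundant of the 47 genes was Pcna, at 184 TPM in WT and 359 TPM in Eumyc.

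**Figure D5:**
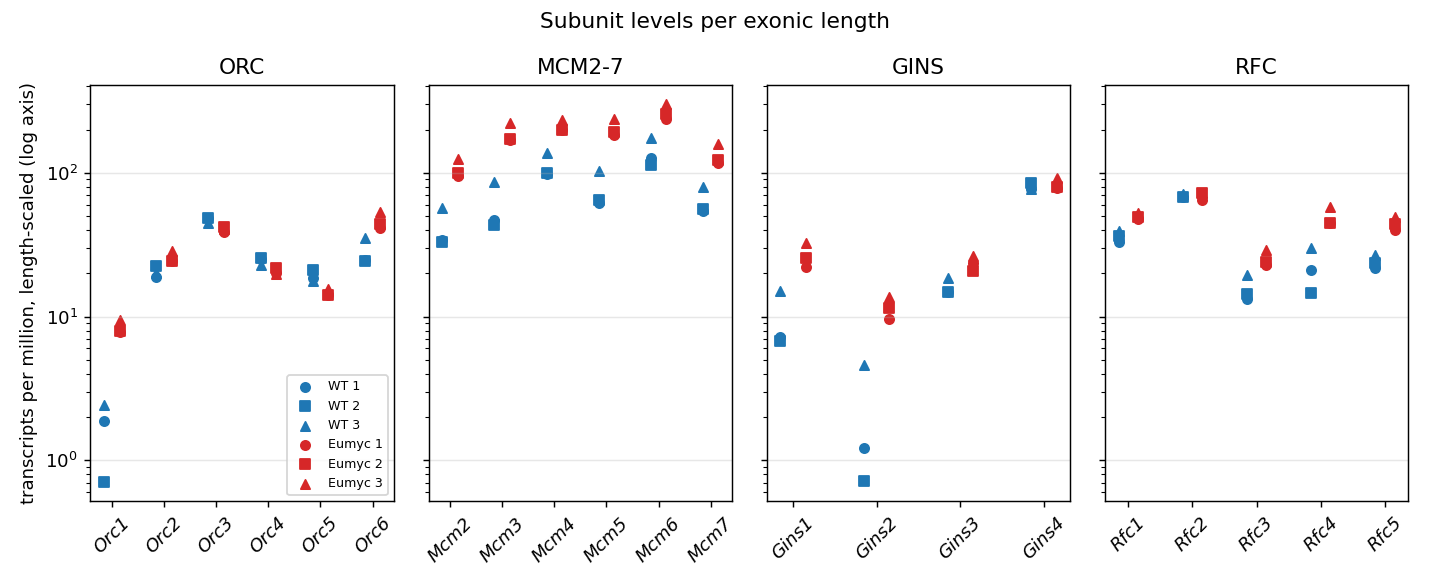
Length-scaled level in TPM (log axis) of the subunits of ORC, MCM2-7, GINS and RFC in each library, WT in blue and Eumyc in red, with circles, squares and triangles for replicates 1, 2 and 3. Orc1 and Gins2 lie far below their partners in WT, at 0.701 to 2.42 and 0.714 to 4.57 TPM, and nearer to them in Eumyc.

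Other genes of the replication programme moved to different degrees. In a list of 31 other replication factors 21 rose and the remaining 10 did not pass, with a median log2 fold change of 0.62. Top2a, the topoisomerase that untangles daughter chromosomes, rose from 56.6 ± 47.8 to 554 ± 119 CPM (SD, n = 3 each), Ticrr, which brings CDC45 to origins, by 3.19 ± 0.39 (SE) on the log2 scale and the histone chaperone gene Chaf1a by 2.37 ± 0.41. Of 11 genes of dNTP supply 9 rose and 2, Rrm2b and Samhd1, did not pass, with a median of 1.70. Rrm2 and Rrm1, the subunits of ribonucleotide reductase, rose by 3.15 ± 0.54 and 1.86 ± 0.21 and the thymidylate synthase gene Tyms by 2.17 ± 0.32.

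Of 27 regulators of G1 and S phase entry 21 rose, 2 fell and 4 did not pass, with a median of 1.29. The S phase cyclin gene Ccna2 rose by 4.04 ± 0.55 and the late E2F repressor genes E2f8 and E2f7 by 3.51 ± 0.68 and 3.29 ± 0.70. The 2 that fell were Cdkn1b, which encodes the cell cycle inhibitor p27, from 296 ± 41.9 to 157 ± 2.49 CPM (SD, n = 3 each), and E2f5, a repressor E2F, by 0.65 (SE 0.15). In the replication checkpoint list 3 of 9 genes rose and 2 fell, shares near the 25.7% and 23.1% of all tested genes, with a median of 0.03. Chek1, the checkpoint kinase that claspin serves, and the kinase gene Wee1 rose by 2.40 ± 0.52 and 1.43 ± 0.20. The clamp subunit gene Rad9a fell by 0.31 (SE 0.08), and Etaa1, an activator of the kinase ATR, fell by 0.29 (SE 0.07).

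Of the translesion and repair polymerase genes, which copy damaged DNA or fill gaps, 2 of 11 rose, 1 fell and 8 did not pass, with a median of 0.02. Over all tested genes 25.7% rose, 23.1% fell and 7909 of 15458 did not pass. Polq and Polh rose by 1.89 ± 0.20 and 0.91 ± 0.10, and Polm fell by 0.33 (SE 0.07). For comparison, all 12 genes of a mitosis list rose, with a median of 3.77, where the replication genes had a median of 1.05. Ube2c, the E2 enzyme of the anaphase-promoting complex, Ccnb1, the mitotic cyclin, and Plk1, a mitotic kinase, rose by 4.84 ± 0.39, 4.69 ± 0.40 and 4.05 ± 0.36. The mitosis genes were also the ones with the larger gap of WT 3, by a median of 1.68 log2 units in 12 of 12 genes. That median was 0.53 for the 47 genes, 0.74 for dNTP supply and 0.54 for G1/S regulators. It was 0.22 for other replication factors, 0.13 for the checkpoint and 0.02 for translesion genes. For Eumyc 3 the median gap was 0.33 for the 47 genes, 0.58 for mitosis and 0.45 for dNTP supply. It was 0.24, 0.21, 0.07 and 0.01 for G1/S regulators, other replication factors, checkpoint and translesion genes. These differences between the lists were not tested.

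The authors' deposited table of the same contrast lists 46 of the 47 genes and leaves out Fen1. In it 39 of them had a positive log2 fold change with an adjusted p under 0.05 and 1, Orc5, a negative one. The share of all genes called in the authors' deposited table was not counted, so these counts have no background beside them. In the authors' deposited table the log2 fold changes of Clspn, Mcm10 and Cdc6 were 1.12, 1.22 and 1.14, below those fitted here with edgeR. Mcm4 at 0.97 and Dbf4 at 1.13 lay close to the edgeR values. DESeq2 run here on the same counts gave 3.00, 2.92 and 2.51 for Clspn, Mcm10 and Cdc6. The deposited values and those fitted here may therefore not be like measures, and the source of the gap was not tested.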

How the data were processed

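RNA of sorted splenic NK cells was sequenced from 3 WT and 3 Eumyc samples, with Illumina TruSeq libraries per the labels' protocols. The deposited table holds whole-number counts per Ensembl gene, which the authors made with STAR 2.5.2 and HTSeq 0.6.1 on mm10 (GRCm38), per the submitters' processing notes. The sources used here do not give annotation release, strand setting or read filters, so genes with overlapping exons or near-identical copies are uncertain. A second deposited table gives the authors' own log2 fold changes and adjusted p-values, for which the submitters' processing notes name DESeq2 1.10.1.

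The members, gene lists and tests were chosen with earlier results of these data known. The test was edgeR 4.0.16 under R 4.3.3, on the counts (filterByExpr at a minimum count of 10, TMM, quasi-likelihood, two-sided, group as the only term), with Benjamini-Hochberg adjustment over 15458 genes at 0.05. Standard errors were computed from the F statistic. The lowest count of a member in a library was 20. Partner ratios used counts plus 0.5. Named genes were all members and, of each other list, the 3 changed genes with the largest absolute log2 fold change whose mean reached 1 CPM, and the ones that fell. Alternatives were DESeq2 1.42.0, limma 3.58.1 voom, RLE, total count and upper quartile scaling, no filter, 3 CPM in 3 libraries, thinning to the smallest total, the replicate number as a block, and 1 library left out at a time. Leaving out WT 3 and Eumyc 3 together was added after seeing the data. The scripts were tested on simulated counts.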

Additional observations from a re-analysis of the deposited data

How the results depend on the processing

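Of the 47 calls, 43 kept their direction and their side of the threshold under each of 16 alternatives, and no log2 fold change of a member turned its sign. Of all 15458 tested genes 3628 rose under total count scaling, 3633 under upper quartile scaling, 4007 under RLE, 4054 with DESeq2 and 4085 with limma voom. It was 3134 of 13859 at equal depth, 4276 of 25212 without a filter and 3277 of 11077 at 3 CPM in 3 libraries. The count of members that rose stayed at 38 to 40 in all 16 alternatives. The count that fell was 2 under total count and 2 under upper quartile scaling, where Orc4 passed too, 0 at equal depth (edgeR, where Orc5 had an adjusted p of 0.0782), and 0 to 1 when 1 library was left out. The count past a 1.5-fold change ranged from 8 to 30 when 1 library was left out, without a count over all tested genes beside it. Leaving out a library also leaves fewer samples for the test. The fold of 5 members (Clspn, Mcm10, Cdc6, Gins2 and Cdc45) moved by over 1.5 times when 1 library was left out, each time most without WT 3. With a replicate block 40 members rose and 1 fell, as without it, and over all genes 4176 rose and 3684 fell in place of 3973 and 3576. Same-numbered libraries had correlations of their deviations of 0.03, 0.09 and 0.10, and differently numbered ones of -0.12 to 0.03. WT 2 and WT 3 correlated best with the Eumyc library of the same number, and WT 1 with Eumyc 2 (0.034 against 0.029). These values are small and the groups share the numbers by name only, so the numbers were not taken to pair the samples. With 5 in place of 0.5 added to the counts, the partner ratios moved by less than the spread between libraries. Leaving out 1 of 3 libraries cannot move a group mean by more than that spread, so those runs were no check on the ratios. Orc1 and Fen1 lay under 5 CPM in every WT library, where few counts limit the precision.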
